A study of Rattus with 4 samples.

Results

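Small noncoding RNAs that work as the RNA cores of ribonucleoprotein machines were compared between RNA recovered with an antibody to the protein NONO and input RNA of cultured rat cardiac cells. The rows taken were those with the gene type SRP_RNA or RNase_MRP_RNA, together with the row named Rpph1. They came to 2 of the 13731 genes listed, Rn7sl1 on chromosome 6 and Rpph1 on chromosome 15. Both had enough reads to be tested.

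Rn7sl1 encodes 7SL RNA, the scaffold of the signal recognition particle (SRP). SRP binds the signal sequence of a growing secretory or membrane protein, slows its translation and brings the ribosome to the endoplasmic reticulum, where the SRP receptor and the Sec61 translocon take over. Rpph1 encodes the RNA subunit of RNase P, the enzyme that removes the 5′ leader of precursor tRNAs; the related enzyme RNase MRP acts on precursor ribosomal RNA and shares most of its protein subunits. Both RNAs are made by RNA polymerase III and carry no poly(A) tail, and SRP is partly assembled in the nucleolus before its export to the cytoplasm.

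The labels of the Rpph1 row are not of one kind. Its gene type is RNase_MRP_RNA, its description is that of the RNase P RNA component, and RefSeq's table of genes for GRCr8 gives Rmrp and Rmrp1 as its other names. In that table it overlaps Parp2, which adjoins the RNase P RNA gene in other mammals too. The row is called Rpph1 here, and RNase MRP RNA under a row of its own was not analysed here.

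The 4 libraries were 2 inputs and 2 NONO immunoprecipitates (NONO IP). NONO is a nuclear RNA-binding protein and a core protein of paraspeckles. The titles name H9C2, a rat heart myoblast line, while the growth protocol names a commercial rat cardiac fibroblast line. By the cell type field the inputs carried an empty vector with no antibody, and the NONO IP libraries carried NONO siRNA with an anti-NONO antibody, so siRNA and antibody cannot be told apart by label. Cells for RT-qPCR and western blots were harvested 48 h after transfection; a time for these libraries is not given in the sources used here. No library with a control antibody was analysed here. By the protocols the RNA went through poly(A) capture, while neither Rn7sl1 nor Rpph1 RNA carries a tail. Rows of the rRNA type still held 105449 and 98242 of the 249548 and 238776 reads of Input replicates 1 and 2. In NONO IP replicates 1 and 2 they held 89199 and 84942 of 279410 and 264059. How capture affected the counts of Rn7sl1 and Rpph1 in either group was not tested. Nothing in the labels says that replicates came from separate cultures, so the p-values measure only the spread between these libraries, which may be technical.

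Gene counts summed to between 238776 and 279410 per library, and 3 reads of a gene equal 10.2 to 15.9 CPM (counts scaled by the TMM method of edgeR, as in all levels below). Of the markers fixed for cell types, the fibroblast genes held 37430 input reads, almost all on collagens. Of the 7 cardiomyocyte genes 6 had rows and held 101 input reads, with 16 and 39 on Tnnt2, and the 4 smooth muscle genes held 1050. Of the 4 endothelial genes only Tek, 1 gene, had a row, with 1 input read. Of the 5 macrophage and leukocyte genes 4 had rows, with 6 input reads. Of the 4 skeletal myoblast markers 1 was analysed here, Des, with 15 input reads. Nono itself was counted at 21 and 9 input reads and at 3 and 3 NONO IP reads.

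7SL RNA was lower in the NONO IP. Reads of Rn7sl1 numbered 301 and 292 in Input replicates 1 and 2 and 99 and 87 in NONO IP replicates 1 and 2. Scaled for library size and composition, these were 1551 and 1545 CPM in the inputs and 335 and 311 CPM in the NONO IP. The inputs agreed closely, both NONO IP libraries lay far below them, and the groups did not overlap; both NONO IP libraries were below both inputs at 37.3% of the genes tested. The mean went from 1548 ± 3.81 to 323 ± 17.3 CPM (SD, n = 2), a 4.79-fold lower mean in the NONO IP. Its log2 fold change was −2.26 (SE 0.12, edgeR quasi-likelihood test, Benjamini-Hochberg adjusted p = 4.63e-11). Genes called lower made up 26.9% of the 2920 tested at an adjusted p under 0.05. Called or not, 84 genes, or 2.88% of those tested, had a log2 fold change below that of Rn7sl1. A fall of at least 2-fold was called for 570 genes. Rodent genomes hold many copies and repeats derived from 7SL, and how reads with several positions were counted is unknown, so the Rn7sl1 counts may include or lack such reads. The difference is one between recovered RNA and input RNA of bulk cultures, so it is not a measure of how much 7SL RNA the cells held. Within bulk RNA of either group, fewer cells holding an RNA and less of it per cell cannot be told apart.

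Rpph1 did not pass the same test. Input replicates 1 and 2 held 314 and 270 of its reads, and NONO IP replicates 1 and 2 held 468 and 505, which came to 1618 and 1429 CPM against 1585 and 1804 CPM. NONO IP replicate 1 lay between the inputs, so the groups overlapped. The mean was 1523 ± 133 CPM in the inputs and 1694 ± 155 CPM in the NONO IP (SD, n = 2), with a log2 difference of 0.15 (SE 0.10, edgeR adjusted p = 0.210). The 95% interval from that SE ran from −0.05 to 0.35. Genes called higher made up 29.8% of those tested and genes called in either direction 56.7%, and both NONO IP libraries were above both inputs at 40.6%. By log2 fold change Rpph1 stood near the middle, above 53.8% of the genes tested.

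**Figure D1:**
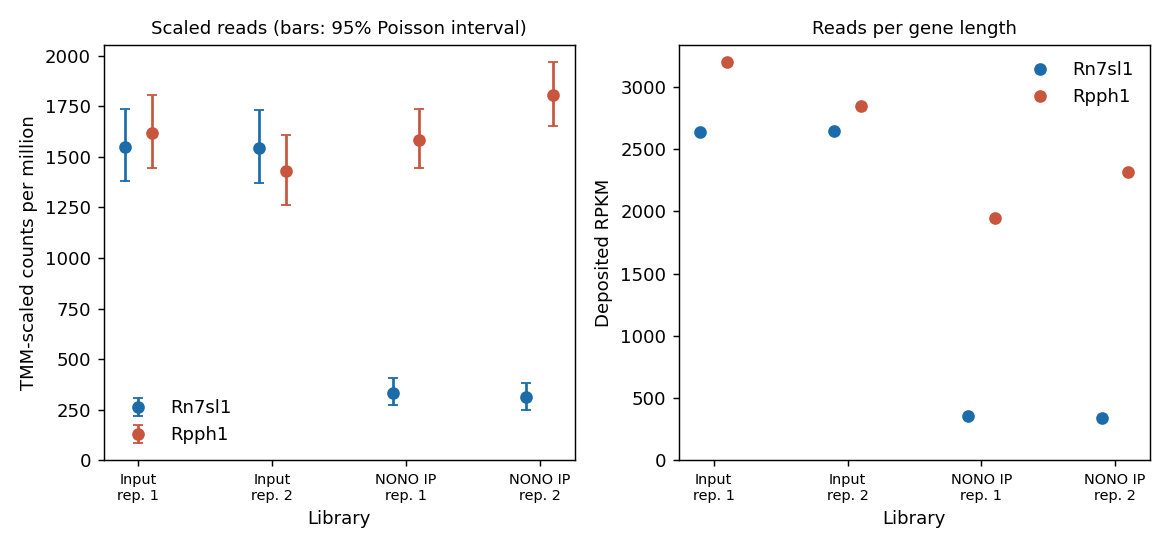
Level of Rn7sl1 (blue) and Rpph1 (red) in each library, as TMM-scaled CPM with 95% Poisson counting intervals (left) and as deposited RPKM (right). On the left Rn7sl1 drops from 1551 and 1545 CPM in the inputs to 335 and 311 CPM in the NONO IP, while the Rpph1 values of the groups overlap; on the right both RNAs are lower in the NONO IP.

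The direction for Rpph1 depended on the scale. On raw library totals it was higher in the NONO IP, with a log2 fold change of 0.58 (edgeR adjusted p = 7.38e-05), but there the median gene lay at 0.45. On the deposited RPKM scale, in reads per kilobase of gene and per library total, Rpph1 stood at 3198 and 2851 for the inputs against 1946 and 2316 for the NONO IP. There the log2 fold change was −0.51 with a pseudocount of 1 (limma adjusted p = 0.0568), beside a median of −0.61 over the genes tested. The total by which RPKM divides was 2.38 times as large for the NONO IP libraries as for the inputs. Measured from the median gene, the log2 fold change of Rpph1 was 0.13 on the TMM scale, 0.13 on library totals and 0.10 on that RPKM scale. Over all 17 settings, the main one included, it ran from −0.46 to 0.31. Leaving out NONO IP replicate 1, the lower of that pair, gave 0.30 (edgeR adjusted p = 0.00311), so 1 library decided whether Rpph1 was called.

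Rn7sl1 kept its direction and its call under every setting tried. Its log2 fold change was −1.83 on library totals (edgeR adjusted p = 7.03e-10) and −2.92 on the RPKM scale with a pseudocount of 1 (limma adjusted p = 0.00314), where the level went from 2635 and 2650 RPKM to 354 and 343. Relative to the median gene, the values of all 17 settings, the main one included, ran from −2.41 to −2.10. The adjusted p was at most 0.00868 in those settings.

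**Figure D2:**
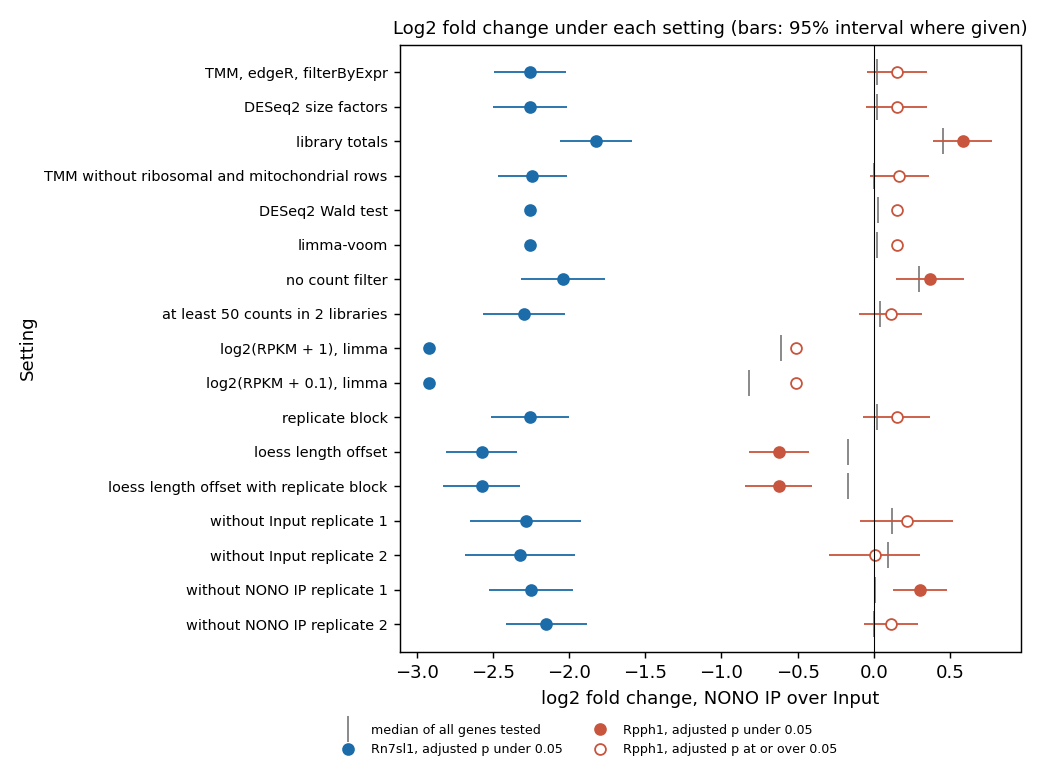
Log2 fold change of Rn7sl1 (blue) and Rpph1 (red) between NONO IP and input under each setting, with 95% intervals as bars where the tool gave an SE and the median of all genes tested as a grey tick. Filled points have an adjusted p under 0.05; Rn7sl1 lies between −2.92 and −1.83 in all of them, and Rpph1 between −0.62 and 0.58, on both sides of 0.

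A ratio taken within a library needs no scaling. In the inputs, 1.04 and 0.925 reads of Rpph1 were counted per read of Rn7sl1 (exact 95% counting intervals 0.888 to 1.23 and 0.781 to 1.09). In the NONO IP the ratios were 4.73 and 5.80 (3.80 to 5.93 and 4.62 to 7.37). The 2 RNAs were thus counted about equally in both inputs, and Rpph1 was several-fold more frequent in both NONO IP libraries. The mean ratio was 0.984 ± 0.0838 in the inputs and 5.27 ± 0.762 in the NONO IP (SD, n = 2), a 5.35-fold higher mean. With reads pooled within each group, the odds ratio was 5.31, with an exact 95% interval of 4.36 to 6.49 for counting error only. The exact permutation test of the log2 ratio over the 4 libraries gave p = 0.333 (two-sided), the smallest p that 2 against 2 libraries allow.

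**Figure D3:**
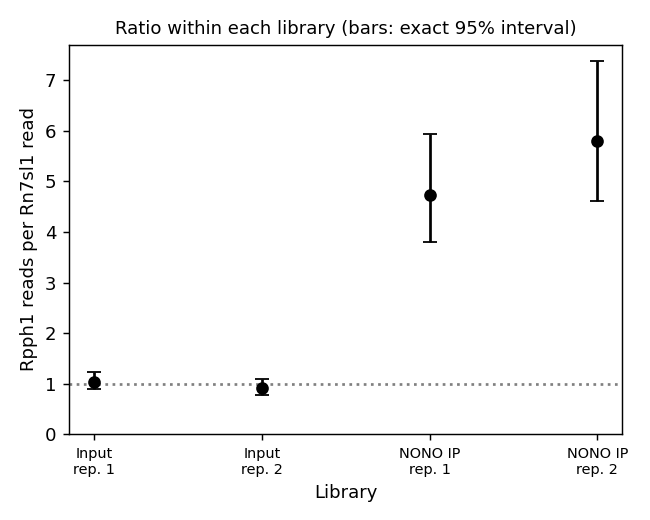
Reads of Rpph1 per read of Rn7sl1 in each library, with exact 95% binomial counting intervals and a dotted line at equal counts. The inputs lie at 1.04 and 0.925 and the NONO IP libraries at 4.73 and 5.80, with intervals that do not meet those of the inputs.

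Per unit of length, both RNAs were among the rows of highest RPKM in the inputs. After poly(A) capture, the rank of an RNA without a tail need not be its rank in the cells. The ratio of counts to RPKM put the Rn7sl1 row at 1.16 times the length of the Rpph1 row, so the 2 can be compared almost directly. In the inputs Rpph1 averaged 3025 ± 246 RPKM and Rn7sl1 2643 ± 10.6 RPKM (SD, n = 2), and Rpph1 was the higher in both libraries. By RPKM Rpph1 ranked 7 and 9 of 13731 genes in each input, respectively, and 7 and 6 in the NONO IP libraries. Rn7sl1 ranked 10 in both inputs but 43 and 40 in the NONO IP. Rpph1 thus stayed among the 9 rows of highest RPKM in every library, and Rn7sl1 did not. In shares of all gene counts, Rn7sl1 took 0.121% ± 0.00118 in the inputs against 0.0342% ± 0.00176 in the NONO IP, and Rpph1 0.119% ± 0.00902 against 0.179% ± 0.0168 (SD, n = 2).

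The protein partners of 7SL were thinly counted. Of 8 genes fixed as SRP proteins, 6 had rows, with 23 and 31 input reads in all against 24 and 20 NONO IP reads. Only Srp68, whose product binds 7SL together with that of Srp72, had enough reads to be tested; it had 7 and 14 reads against 11 and 10 and did not pass. Srp72 had 9 and 8 reads against 4 and 3. Srp54a, a gene for the subunit that binds signal sequences, had 4 and 2 reads against 2 and 0. Summed over the 6 rows the level was 141 ± 32.2 CPM in the inputs and 76.4 ± 6.94 CPM in the NONO IP (SD, n = 2), with no test of the sum.

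Downstream of SRP, 2 of 5 tested genes of the receptor and translocon list were lower in the NONO IP and none was higher, beside 26.9% called lower and 29.8% called higher over all genes tested. The median log2 fold change of the 5 was −0.06, against 0.02 over all genes tested. Srpra, the receptor subunit that docks SRP at the membrane, had 36 and 38 input reads against 16 and 7 NONO IP reads (193 ± 11.1 and 39.6 ± 20.6 CPM, SD, n = 2). Both NONO IP libraries lay below both inputs, at a log2 fold change of −2.26 (SE 0.33, edgeR adjusted p = 2.3e-05). Without NONO IP replicate 1 the value was −2.86, and with replicate 2 left out in its place it was −1.77, both still called. Sec61a1, the pore of the translocon, had 82 and 82 reads against 34 and 42 and fell by 1.69 on the log2 scale (SE 0.20, edgeR adjusted p = 1.71e-06). The other 3 did not pass. Ssr1, a subunit of the translocon-associated protein complex, had 25 and 13 reads against 32 and 24. Tram1, a translocating-chain-associated protein, had 28 and 29 against 39 and 43, and Sec63, which works with the channel and the chaperone BiP, had 20 and 12 against 36 and 22.

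The protein genes of RNase P and RNase MRP were close to the limit of counting. Of 12 genes fixed, 11 had rows, and none reached the filter. They summed to 6 and 4 input reads against 7 and 8 NONO IP reads, and no single member had more than 4 reads over the 4 libraries. Pop1, the largest protein subunit, had 0 and 0 reads against 1 and 1, and Rpp30 had 1 and 0 against 1 and 2. Of the mitochondrial RNase P, a protein enzyme with no RNA, 2 genes had rows, with 2 input reads and 3 NONO IP reads in all. Rpph1 RNA was thus counted at 584 reads in the inputs, where its protein genes together had 10.

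Few of the genes that transcribe these RNAs could be tested. The 12 RNA polymerase III subunit genes with rows held 40 input reads and 44 NONO IP reads, and none was tested. Of 17 polymerase III factor genes with rows, 3 were tested and 1 was called higher, beside 29.8% of all genes tested. Pou2f1, which encodes Oct-1, a factor that binds the distal promoter element of snRNA-type genes such as that of RNase P RNA, had 1 and 1 input reads against 12 and 11 NONO IP reads. It was higher by a log2 fold change of 2.82 (SE 0.66, edgeR adjusted p = 0.0017). It passed the count filter through its NONO IP reads, and its call ended without either input library (adjusted p = 0.0873 and 0.0905) and by the DESeq2 Wald test (0.0942). With an offset for gene length the value was 1.34 (edgeR adjusted p = 0.206). Brf1, a TFIIIB subunit, had 5 and 13 reads against 18 and 21, and Gtf3c1, the largest TFIIIC subunit, had 13 and 13 against 13 and 11; neither passed. Gtf3c2 and Gtf3c4, below the filter, had 8 and 7 reads against 9 and 8, and 5 and 3 against 7 and 12.

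Of the genes for proteins of the La family and related binders of small RNAs, 7 had rows, 2 were tested and 1 was called higher, again beside 29.8% of all genes. Larp1, which binds the 5′ end of ribosomal protein mRNAs, had 87 and 78 input reads against 182 and 155 NONO IP reads. It was higher by a log2 fold change of 0.44 (SE 0.14, edgeR adjusted p = 0.0135). That call ended without Input replicate 1 (adjusted p = 0.0801), without Input replicate 2 (0.238) and by the DESeq2 Wald test (0.172), and with the offset for gene length the value was 0.13 (0.462). On the RPKM scale it was −0.21, above a median of −0.61. Larp4b had 8 and 18 reads against 27 and 34 and did not pass, and Larp4, below the filter, had 10 and 6 against 7 and 4. Ssb, the gene of the La protein that binds the 3′ end of new polymerase III transcripts, had 3 and 4 reads against 0 and 4.

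**Figure D4:**
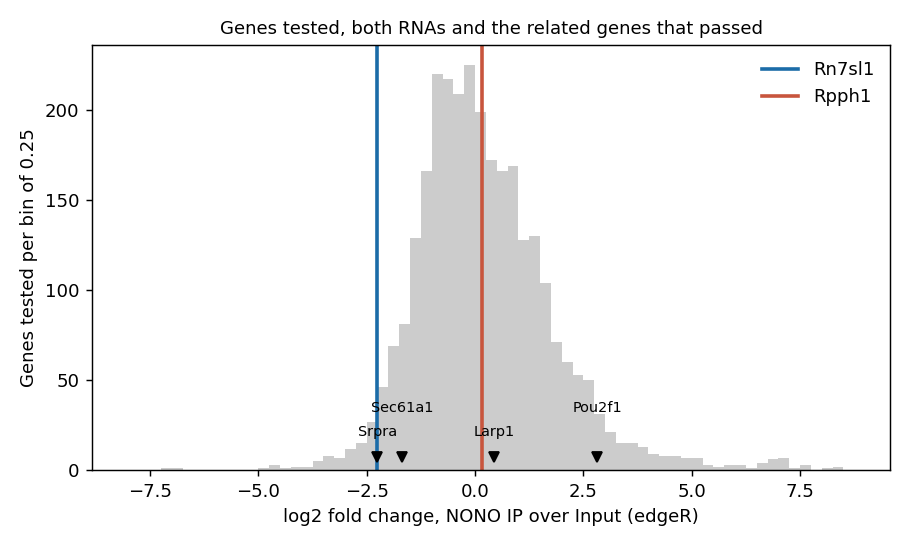
Log2 fold changes between NONO IP and input of the 2920 genes tested (grey, bins of 0.25), with Rn7sl1 at −2.26 (blue line), Rpph1 at 0.15 (red line) and black triangles for the 4 genes of the related lists that passed. Srpra and Sec61a1 lie on the low side with Rn7sl1, and Pou2f1 on the high side.

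Other small RNAs give the setting for these values. The 5S rRNA rows and the tRNA rows are polymerase III products too, and the 5S rows were split from the rRNA type by description after their values were seen. The 28 rows of 5S rRNA summed to 20 and 23 input reads against 147 and 164 NONO IP reads, or 112 ± 13.2 and 542 ± 62.3 CPM (SD, n = 2). The 47 tRNA rows summed to 8 and 7 reads against 32 and 24, or 39.1 ± 2.95 and 97.0 ± 16.0 CPM. Both sums were higher in both NONO IP libraries, whereas the Rn7sl1 value was lower and those of Rpph1 overlapped. The log2 ratio of mean sums was 2.27 for 5S rRNA and 1.31 for tRNA on the TMM scale, and 1.61 and 0.60 on the RPKM scale. These sums carry no test, and copies of one RNA can share reads.

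Sums of the other classes lay on both sides. The 5 rows of 5.8S rRNA summed to 108 and 75 input reads against 42 and 44 NONO IP reads, and the 2 rows of 18S rRNA to 7043 and 6927 against 1475 and 1882. The log2 ratios of their mean CPM were −1.67 and −2.64, on either side of the −2.26 of Rn7sl1. Those of 28S rRNA and 45S pre-rRNA were −0.83 and −0.64, a smaller fall than that of Rn7sl1. The snRNA rows, at 1840 ± 72.1 CPM in the inputs close to the level of Rn7sl1 and Rpph1, stood at 3179 ± 221 CPM in the NONO IP. The snoRNA rows went from 3518 ± 95.6 to 10476 ± 1766 CPM and the guide RNA rows from 315 ± 71.5 to 3888 ± 947 CPM (SD, n = 2). The directions of these sums were the same on library totals and on the RPKM scale, where the snRNA ratio was 0.12. The 42 miRNA rows were also higher, at 57.2 ± 28.4 CPM in the inputs and 456 ± 54.0 CPM in the NONO IP. The sums of the 34 misc_RNA rows overlapped between the groups, as the Rpph1 values did. They stood at 752 and 799 CPM in the inputs against 846 and 732 CPM in the NONO IP. Their log2 ratio was 0.03 on the TMM scale, 0.46 on library totals and −0.54 on the RPKM scale. Of the 7 misc_RNA rows tested, 4 were called higher and 1 lower, beside 29.8% and 26.9% of all genes tested. The sum thus joined rows that differed in opposite directions.

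**Figure D5:**
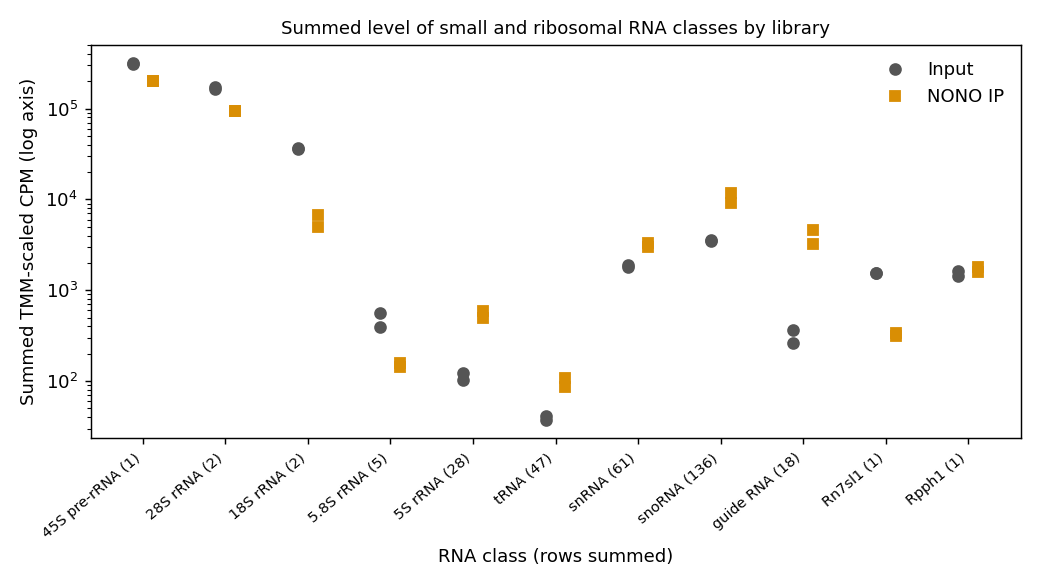
Summed TMM-scaled CPM of ribosomal and small RNA classes in each library on a log axis, with the number of rows summed in parentheses, inputs in grey and NONO IP in orange. Rn7sl1 and the ribosomal RNAs other than 5S are lower in both NONO IP libraries, the 5S rRNA, tRNA, snRNA, snoRNA and guide RNA sums are higher, and the Rpph1 points of the groups overlap.

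Among the snRNA, snoRNA, guide RNA and 5.8S rRNA rows, 16 had at least 23 input reads, the lowest total of a gene tested, and no 5S row did. Of the 16, 6 were called higher, 5 lower and 5 did not pass, beside 29.8% and 26.9% of all genes tested. The shares over all genes were taken without that floor on input reads, so the sets are not alike. The 3 snRNA rows were all higher and the 2 rows of 5.8S rRNA both lower. Of the 10 snoRNA rows 3 were higher, 3 lower and 4 did not pass. Of the 73 other tested genes no longer than the Rn7sl1 row, 57 were called higher and 9 lower, but 54 of the 73 had fewer than 23 input reads and so were tested through their NONO IP reads. A length offset fitted over all genes tested, these short ones included, put Rpph1 at −0.62 (edgeR adjusted p = 7.38e-05), below a median of −0.17, and Rn7sl1 at −2.57. The offsets were 0.78 and 0.32 on the log2 scale for rows of nearly equal length, so the Rpph1 value on that setting rests on a steep part of the curve.

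Genes with placeholder symbols (LOC, RGD or AABR) were left out of the search for genes of similar level. Of the other genes tested, those with levels over the 4 libraries closest to Rn7sl1 were Col12a1, Dync1h1 and Pdgfrb. Their Euclidean distances were 0.55, 0.80 and 0.86 in log2 CPM. Col12a1, a fibril-associated collagen, stood at 1710 and 1630 CPM in the inputs against 427 and 414 CPM after NONO IP. Closest to Rpph1 were Actn1, which encodes an actin-binding alpha-actinin, the netrin receptor gene Unc5b and the proteoglycan gene Bgn, at 0.33, 0.54 and 0.62. Actn1 stood at 1442 and 1302 CPM in the inputs against 1889 and 1865 CPM after NONO IP.

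Reads from the genes around these rows were few. Beside Rn7sl1 in the RefSeq table lies Rps29, a ribosomal protein gene, which had 6 and 6 input reads against 1 and 1. Parp2, which overlaps Rpph1, had 0 and 1 input reads against 0 and 1. Tep1, the next gene, for a protein of telomerase and vault particles, had 15 and 14 against 9 and 8. Lrr1 and Ccnb1ip1, the nearest on the other sides, were not analysed here. The counts of Rn7sl1 and Rpph1 were thus many times those of any neighbour with a row.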

How the data were processed

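RIP-seq gene values of 2 input and 2 NONO IP libraries were used. Per the labels' protocols, DNase-treated RNA went through poly(A) capture into a stranded mRNA kit. The deposited counts are raw reads, whole numbers per gene, and the deposited RPKM values were made by the authors from reads and gene length. HISAT2, HOMER and mRatBN7.2 are named without role or version per the submitters' processing notes. Which counter was run, with which strand setting and rule for reads with several positions, is not given in the sources used here. The assignment of reads from 7SL copies and 7SL-derived repeats, from overlapping genes and from antisense transcripts is therefore uncertain.

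Genes passing filterByExpr (2920, with at least 23 reads) were tested with edgeR 4.0.16 in R 4.3.3 (quasi-likelihood test, TMM, Benjamini-Hochberg over all genes tested, threshold 0.05). CPM uses the reads of those genes. SE is the log2 fold change over the root of F. Alternatives used DESeq2 1.42.0, limma 3.58.1 on log2 RPKM (pseudocounts 1 and 0.1) for genes with RPKM of at least 1 in 2 libraries, other scalings and filters, and, added after the data were seen, a loess offset for gene length (span 0.5). On simulated data with 2489 genes fitted, the test recovered 100% of 4-fold and 86% of 2-fold changes, with 11 false calls among 2289 unchanged genes. There, 200 genes were changed, up and down equally, and picked among those with more input reads. In the real data 56.7% of the genes tested were called and many were thinly counted, so these rates need not hold for them. Chi-square per degree of freedom between replicates was 1.12 for inputs and 1.42 for NONO IP, where sampling noise alone gives 1; 2 libraries per group were kept. Reads carry no molecular identifiers, so counting intervals cover counting error only. Members and lists were chosen with earlier results of these data known. Named were both RNAs, up to 4 passing genes per related list and direction, and list genes not passing with at least 23 reads. Also named were the 3 nearest tested genes by level without a placeholder symbol, the neighbours in the RefSeq table and Nono. Srp54a, Pop1, Rpp30 and Ssb were named after their values were seen. Both RNAs matched that table by symbol.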

Additional observations from a re-analysis of the deposited data

How the results depend on the processing

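Rn7sl1 stayed lower and called in all 16 alternatives (−2.92 to −1.83, and −2.32 to −2.15 when 1 library was left out). Its level ratio without a test was −1.83 on library totals and −2.92 on RPKM. Rpph1, not called in the main test, was called higher on library totals (0.58) and with no count filter (0.37). It was negative on RPKM with a pseudocount of 1 or 0.1 (−0.51 in both, neither called) and with the length offset without and with the replicate block (−0.62 in both, called lower). Leaving out 1 library gave Rpph1 between 0.0062 and 0.30, called only without NONO IP replicate 1. The log2 difference in the Rpph1 to Rn7sl1 ratio was 2.42, and 2.27 to 2.56 with 1 library left out. Larp1 was negative on RPKM, at −0.21 and −0.22.

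Over all genes, 871 were higher and 786 lower. These were 453 and 423 by the DESeq2 Wald test, 254 and 247 with at least 50 counts in 2 libraries, and 393 and 1425 with a pseudocount of 1 on RPKM. There were 348 higher with a pseudocount of 0.1 and 466 lower on library totals. Higher genes were 52.6% of calls on the TMM scale and 71.9% on library totals; with 1 library left out, 679 to 810 were higher and 615 to 705 lower. With the replicate number as a block Rn7sl1 was −2.26 and Rpph1 0.15, and 870 and 806 genes were called. The numbers were not taken to pair the libraries, because the labels state no pairing. Same-numbered libraries deviated together at a correlation of 0.05, which at this depth and with 2 libraries per group cannot show whether they were paired. Depth limits the protein genes: 3 reads of a gene lie at 10.2 to 15.9 CPM. The cause of these differences was not tested.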
